A study of Mus musculus with 21 samples.

Results

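AMPA receptors carry most of the fast excitatory current in the forebrain. The 10 genes described here encode their 4 pore-forming subunits (Gria1, Gria2, Gria3 and Gria4) and 6 auxiliary proteins that travel with the pore (Cacng2, Cacng3, Cacng8, Cnih2, Cnih3 and Shisa9). They were picked by gene symbol from the 64361 gene rows of a bulk RNA count table, and all 10 were found and passed the filter on low counts in every comparison. They were named with results of these same libraries in view, so their differences between genotypes and between tissues are given as a description.

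The tissue came from cortex and hippocampus of GA-Camk2a mice and controls, killed at 30 to 40 weeks of age. GA-Camk2a mice carry a GFP-tagged poly-GA transgene, the glycine-alanine dipeptide repeat made from the C9orf72 expansion, behind a floxed stop that Camk2a-Cre removes in excitatory neurons. The series design gives the humane endpoint of the transgenic mice as the time at which both genotypes were taken, and the text of the study names only the lower end of this age range. The study states that its GA-Camk2a mice came from 2 litters. The controls are labelled only as ctrl, and which alleles they carry, Cre included, is not given for the RNA libraries in the sources used here. For its staining of this line, the study names the controls Camk2a. The 4 groups were 5 control cortex, 6 GA-Camk2a cortex, 4 control hippocampus and 6 GA-Camk2a hippocampus libraries, from 11 mice of which 10 gave both tissues. A legend of the study gives the smaller control group to cortex in place of hippocampus, and the sample labels were followed here. Each group held libraries of both batches named in the labels.

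An AMPA receptor is built from 4 pore subunits, and its properties follow from which ones are present. Gria2 is the subunit that keeps calcium out, because a codon in its pore loop is edited in the RNA. Receptors without edited Gria2 let calcium through. The auxiliary proteins are not part of the pore. Cacng2, Cacng3 and Cacng8 are transmembrane AMPA receptor regulatory proteins (TARPs), which bring receptors to the synapse and slow their closing, and Cacng8 is best known from the hippocampus. Cnih2 and Cnih3 are cornichon proteins, which help receptors leave the endoplasmic reticulum and slow their gating. Shisa9 is a further membrane protein of the complex, studied mostly in dentate granule cells.

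The site at which Gria2 differs from its relatives in the RNA is shown here because it separates the subunits by function and cannot be seen in the counts. The 45 bases of coding sequence around it were read from the GENCODE M21 annotation of the GRCm38 genome, with the codon of the glutamine/arginine site in capitals. In the genome that codon reads as glutamine in all 4 genes, and the arginine of Gria2 appears only after editing.
Gria1: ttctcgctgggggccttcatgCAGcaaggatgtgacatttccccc
Gria2: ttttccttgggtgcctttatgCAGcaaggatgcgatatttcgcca
Gria3: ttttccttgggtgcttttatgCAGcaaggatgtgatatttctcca
Gria4: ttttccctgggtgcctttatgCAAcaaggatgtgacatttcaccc

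The codon lies at chr11:57243094-57243096 on the plus strand for Gria1 and at chr3:80706911-80706913 on the minus strand for Gria2. It lies at chrX:41610265-41610267 on the plus strand for Gria3 and at chr9:4464137-4464139 on the minus strand for Gria4. It is coding sequence in exon 11 of 16 in the first 3 genes and in exon 12 of 17 in Gria4. Over the 45 bases, 42 of Gria3, 39 of Gria4 and 36 of Gria1 were the same as in Gria2. The counts come from the 3′ end of poly(A) RNA, so neither editing at this codon nor the flip and flop splice forms were read.

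Total counts per library ran from 1048201 to 5888102, and the lowest count of any of the 10 genes in a library was 22. Values are CPM, the count of a gene divided by the total count of its library and scaled to a common total, given as mean ± SD over libraries. Differences are log2 values from edgeR's quasi-likelihood fit with batch as a term, with their standard error, and a gene is said to have passed where the Benjamini-Hochberg adjusted p over all genes tested was under 0.05. The transgene could not be used to check the genotype labels, since the GFP row held 0 to 4 counts in any library and was not empty in control cortex. Marker lists of the tissues and cell types were read in the same libraries. Summed hippocampal field markers were 643 to 796 CPM in control hippocampus against 150 to 215 CPM in control cortex. Summed choroid plexus markers ran from 1807 to 32698 CPM within control hippocampus and from 1837 to 55499 CPM within GA-Camk2a hippocampus. The cause of this spread, and its part in the values below, was not tested.

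**Figure D1:**
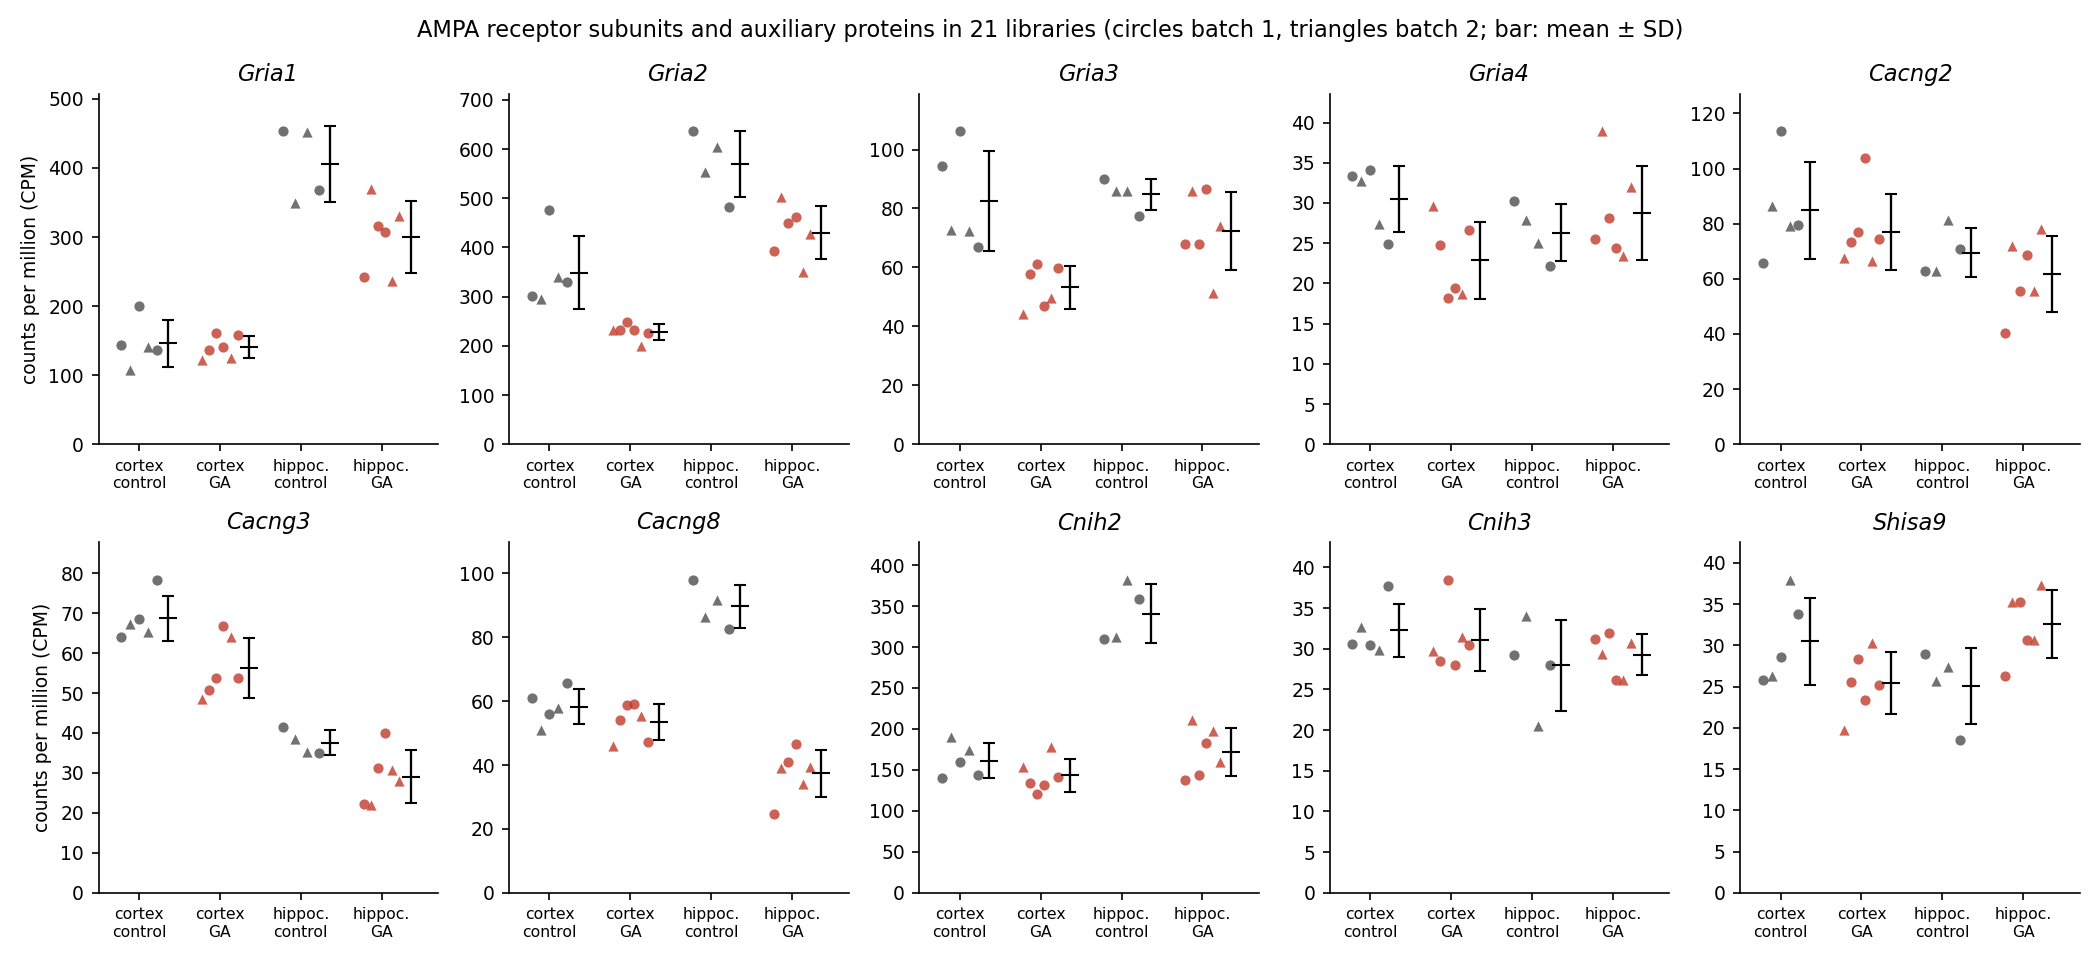
CPM (y axis) of the 10 genes in every library of the 4 groups (x axis), with circles for batch 1, triangles for batch 2 and the mean ± SD beside each group. Gria2 and Gria3 in cortex and Cacng8 and Cnih2 in hippocampus show GA-Camk2a libraries lying wholly below the control libraries.

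The first question was where these genes stand in each tissue without the transgene. In controls, Gria1, Gria2, Cacng8 and Cnih2 were higher in hippocampus than in cortex, and Cacng3 was lower. These are 4 higher and 1 lower of 10, beside 8.69% of the 14435 genes tested that were higher and 7.6% that were lower. In all 5, the control hippocampus libraries did not overlap the control cortex libraries, beside 8.15% of genes tested with every hippocampus library higher and 5.58% with every one lower. The genes were named with results of these libraries in view, so these counts are a description and nothing is read from them. The median log2 difference of the 10 was -0.10.

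Gria1, the subunit whose insertion accompanies synaptic strengthening, stood at 453, 349, 452 and 369 CPM in the 4 control hippocampi. It stood at 144, 108, 201, 140 and 137 CPM in the 5 control cortices. The lowest hippocampus was above the highest cortex, and Gria1 was 2.71-fold higher in hippocampus (log2 difference 1.44 ± 0.12, edgeR adjusted p = 6.48e-07). Gria2 stood at 637, 552, 603 and 483 CPM in control hippocampus against 301, 296, 477, 340 and 329 CPM in control cortex. Control mouse 31 had by far the highest cortical value of Gria2 and still lay below all 4 hippocampi (0.66 ± 0.12, edgeR adjusted p = 0.000961). Gria3 and Gria4 had overlapping values. Gria3 was 82.6 ± 16.9 CPM in cortex and 84.8 ± 5.35 CPM in hippocampus, and Gria4 was 30.5 ± 4.09 and 26.3 ± 3.50 CPM.

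Among the auxiliary genes, Cnih2 showed the widest gap between the tissues. Its values were 310, 312, 382 and 359 CPM in control hippocampus and 140, 190, 159, 174 and 144 CPM in control cortex, a 2.02-fold difference (1.02 ± 0.10, edgeR adjusted p = 3.23e-06). Cacng8 was 98.1, 86.3, 91.7 and 82.8 CPM in hippocampus and 61.1, 50.9, 56.1, 57.7 and 65.7 CPM in cortex (0.57 ± 0.11, edgeR adjusted p = 0.0012). Cacng3 ran the other way, at 41.6, 38.4, 35.3 and 34.9 CPM in hippocampus and 63.9, 67.2, 68.5, 65.3 and 78.4 CPM in cortex (-0.92 ± 0.11, edgeR adjusted p = 2.31e-05). Cacng8 and Cacng3 thus had opposite regional order in the same libraries. Cacng2 had a log2 difference of -0.36 ± 0.13 and did not pass (edgeR adjusted p = 0.0653). With mouse as a block over the mice that gave both tissues it passed (-0.35 ± 0.11, edgeR adjusted p = 0.0427), as it did by limma-voom with quality weights (-0.35). It also passed without cortex of control mouse 11 (-0.42) or hippocampus of control mouse 31 (-0.42). Shisa9 had a difference of -0.40 ± 0.16 (edgeR adjusted p = 0.0913), which among the settings tried passed only without hippocampus of control mouse 11 (-0.54). It ran from -0.54 to -0.26 with a library left out and from -0.40 to -0.05 in the other settings. Cnih3 had a difference of -0.22 ± 0.15 (edgeR adjusted p = 0.370).

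Within batches the regional differences kept their sign for these 5 genes. In batch 1 and batch 2 alone they were 1.31 and 1.60 for Gria1, 0.56 and 0.79 for Gria2, 0.52 and 0.63 for Cacng8, 1.14 and 0.87 for Cnih2, and -0.94 and -0.88 for Cacng3. Gria2 and Cacng8 did not pass in batch 1 alone. Summed striatal markers were 429 to 628 CPM in control cortex against 116 to 160 CPM in control hippocampus. In control hippocampus 3 of 7 inhibitory neuron markers and 4 of 9 pan-neuronal markers were lower, beside 7.6% of genes tested. All 4 choroid plexus markers were higher, beside 8.69% of genes tested. The part of these in the regional differences was not tested.

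The main question was how the receptor genes differ between GA-Camk2a mice and controls. In cortex, Gria2 and Gria3 were lower in GA-Camk2a mice. The other 8 genes did not pass. This is 2 of 10 lower and 0 higher, beside 6.17% of the 13058 genes tested that were lower and 6.35% that were higher. The same 2 were the ones with every GA-Camk2a library below every control, beside 2.67% of genes tested. No gene of the 10 had every GA-Camk2a library above every control, beside 3.5% of genes tested. Nothing is read from these counts, since the genes were named with these libraries in view. The median log2 difference of the 10 was -0.21, against -0.01 over all genes tested.

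Gria2 in control cortex was 301, 296, 477, 340 and 329 CPM. In GA-Camk2a cortex its lowest, median and highest values were 199, 232 and 248 CPM. All 6 GA-Camk2a libraries lay below the lowest control. Their SD was 16.02 CPM, against 73.9 CPM among controls, where mouse 31 stood apart at 477 CPM. The other controls were at 296 to 340 CPM. Gria2 was 1.53-fold lower (log2 difference -0.61 ± 0.10, and -0.64 and -0.57 in batch 1 and batch 2 alone). In bulk tissue, fewer cells of a type and less RNA per cell cannot be told apart, here and in every genotype difference that follows.

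Gria3, a subunit encoded on the X chromosome that pairs mostly with Gria2, was 94.4, 72.7, 106, 72.4 and 67.0 CPM in control cortex. The GA-Camk2a libraries had a lowest value of 44.0, a median of 53.7 and a highest of 61.3 CPM. Again all 6 were below every control (-0.62 ± 0.12, and -0.62 in each batch alone). Neither Gria2 nor Gria3 passed in batch 2 alone, which holds 2 libraries of each group.

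Gria1 in cortex had overlapping groups. It was 144, 108, 201, 140 and 137 CPM in controls and 122 to 161 CPM with a median of 138 CPM in GA-Camk2a mice, and no GA-Camk2a library lay outside the range of the controls (-0.06 ± 0.10, 95% interval -0.28 to 0.15). Gria4, a subunit of many interneurons, was 30.5 ± 4.09 CPM in controls and 22.9 ± 4.78 CPM in GA-Camk2a mice. Of its GA-Camk2a libraries 4 lay below all controls, and the difference of -0.37 ± 0.16 did not pass. All 6 auxiliary genes had overlapping groups in cortex. Their log2 differences were -0.05 ± 0.13 for Cnih3, -0.13 ± 0.11 for Cacng8, -0.14 ± 0.09 for Cnih2, -0.16 ± 0.12 for Cacng2, -0.26 ± 0.14 for Shisa9 and -0.29 ± 0.11 for Cacng3.

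In hippocampus, Cacng8 and Cnih2 had the widest differences of the 10, and Gria1 and Gria2 were lower by a smaller amount. This is 4 of 10 lower and 0 higher, beside 5.97% of the 14884 genes tested that were lower and 4.97% that were higher. Cacng8 and Cnih2 were the ones with all GA-Camk2a libraries below all controls, beside 4.02% of genes tested, and 0 of 10 had all of them above, beside 5.6%. As in cortex, nothing is read from these counts. The median log2 difference of the 10 was -0.35, against 0.02 over all genes tested.

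Cacng8 was 98.1, 86.3, 91.7 and 82.8 CPM in the 4 control hippocampi. In the 6 GA-Camk2a hippocampi its lowest, median and highest values were 24.8, 39.1 and 46.6 CPM. The highest GA-Camk2a library was far under the lowest control, and the mean of 37.4 ± 7.38 CPM was also below that of control cortex, 58.3 ± 5.53 CPM. Cacng8 was 2.47-fold lower (-1.30 ± 0.13, and -1.31 in each batch alone). Ordered by log2 difference, 0.107% of the genes tested in hippocampus were at or below it.

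Cnih2 was 310, 312, 382 and 359 CPM in control hippocampus and had a lowest, median and highest value of 138, 171 and 211 CPM in GA-Camk2a hippocampus. The groups were again wide apart, and the difference was 2.05-fold (-1.04 ± 0.11, and -1.16 and -0.93 in batch 1 and batch 2 alone). Its level in GA-Camk2a hippocampus, 172 ± 29.5 CPM, was close to that of control cortex, 161 ± 20.9 CPM and the 2 ranges overlapped.

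The promoters of Cnih2 and Gria2 are shown because the first passed in hippocampus alone and the second was lower in both tissues. Of the 10 genes 7 had an entry in the RefSeq promoter table of GRCm38.p6, and Gria1, Gria3 and Shisa9 were without one. For Cacng2, Cacng3 and Cacng8 the listed start differed from that of the GENCODE gene by 748, 1252 and 3359 bases, and their windows are not shown. The 250 bases before the start lie at chr19:5098522-5098771 for Cnih2 and at chr3:80802836-80803085 for Gria2, both on the minus strand. Capitals mark matches to the GC box, GGGCGG, on either strand.
Cnih2: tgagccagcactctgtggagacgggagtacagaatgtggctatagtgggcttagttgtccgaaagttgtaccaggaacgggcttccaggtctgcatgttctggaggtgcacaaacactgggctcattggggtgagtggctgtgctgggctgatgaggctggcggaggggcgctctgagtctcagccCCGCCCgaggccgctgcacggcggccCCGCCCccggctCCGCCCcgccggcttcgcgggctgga
Gria2: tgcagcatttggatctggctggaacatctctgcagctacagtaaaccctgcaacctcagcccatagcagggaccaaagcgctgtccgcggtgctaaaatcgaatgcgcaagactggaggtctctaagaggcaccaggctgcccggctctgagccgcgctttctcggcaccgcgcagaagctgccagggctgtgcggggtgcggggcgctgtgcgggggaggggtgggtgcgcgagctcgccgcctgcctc

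The Cnih2 window held 3 GC box matches and the Gria2 window 0, at a similar GC content of 65.6% and 64.8%. Cnih3 held 1 match and the other 4 windows held 0, beside 32.7% of all 32851 promoters in the table with at least 1. None of the 7 windows held TGACG, the half-site of the cyclic AMP response element (17.8% of all promoters), CAGCACC, a half-site of the RE1 silencing element (5.73%), or TATAAA (12.4%). Matches were sought on both strands, and no match says only that these letters are not in this window.

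The pore subunits in hippocampus differed less than Cacng8 and Cnih2. Gria1 was 453, 349, 452 and 369 CPM in controls and had a lowest, median and highest value of 236, 312 and 370 CPM in GA-Camk2a mice. The highest GA-Camk2a library, from mouse 23, lay just above the 2 lower controls, and the other 5 lay below all controls (-0.48 ± 0.11, and -0.55 and -0.42 in batch 1 and batch 2 alone). This difference did not pass without control mouse 11 (-0.42) or control mouse 31 (-0.44), or in either batch alone. Gria2 was 637, 552, 603 and 483 CPM in controls and 349, 438 and 502 CPM as lowest, median and highest in GA-Camk2a mice. There too 5 of 6 lay below all controls (-0.45 ± 0.10, and -0.40 and -0.51 in batch 1 and batch 2 alone), and the difference did not pass in batch 1 alone.

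Gria3, which was lower in cortex, was 90.0, 85.9, 86.0 and 77.3 CPM in control hippocampus. Its GA-Camk2a values ran from 51.3 to 86.5 CPM with a median of 71.1 CPM, and the difference of -0.28 ± 0.11 did not pass. Gria4 was 26.3 ± 3.50 CPM in controls and 28.7 ± 5.88 CPM in GA-Camk2a mice (0.06 ± 0.14). Of the other auxiliary genes, Cacng3 was 37.5 ± 3.11 CPM in controls and 29.1 ± 6.65 CPM in GA-Camk2a mice. Its difference of -0.41 ± 0.15 did not pass, but did so without GA-Camk2a mouse 34 (-0.51), without the filter on low counts and by limma-voom with quality weights. Cacng2 had a difference of -0.22 ± 0.13 and Cnih3 one of -0.01 ± 0.14. Shisa9 was the only gene of the 10 whose estimate was above 0.3, at 28.9, 25.6, 27.4 and 18.5 CPM in controls and 26.2, 32.9 and 37.4 CPM as lowest, median and highest in GA-Camk2a mice. Of these 5 lay above all controls, and the difference of 0.35 ± 0.13 did not pass. The estimate ran from 0.22 to 0.46 with a library left out and from 0.09 to 0.37 in the other settings tried.

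**Figure D2:**
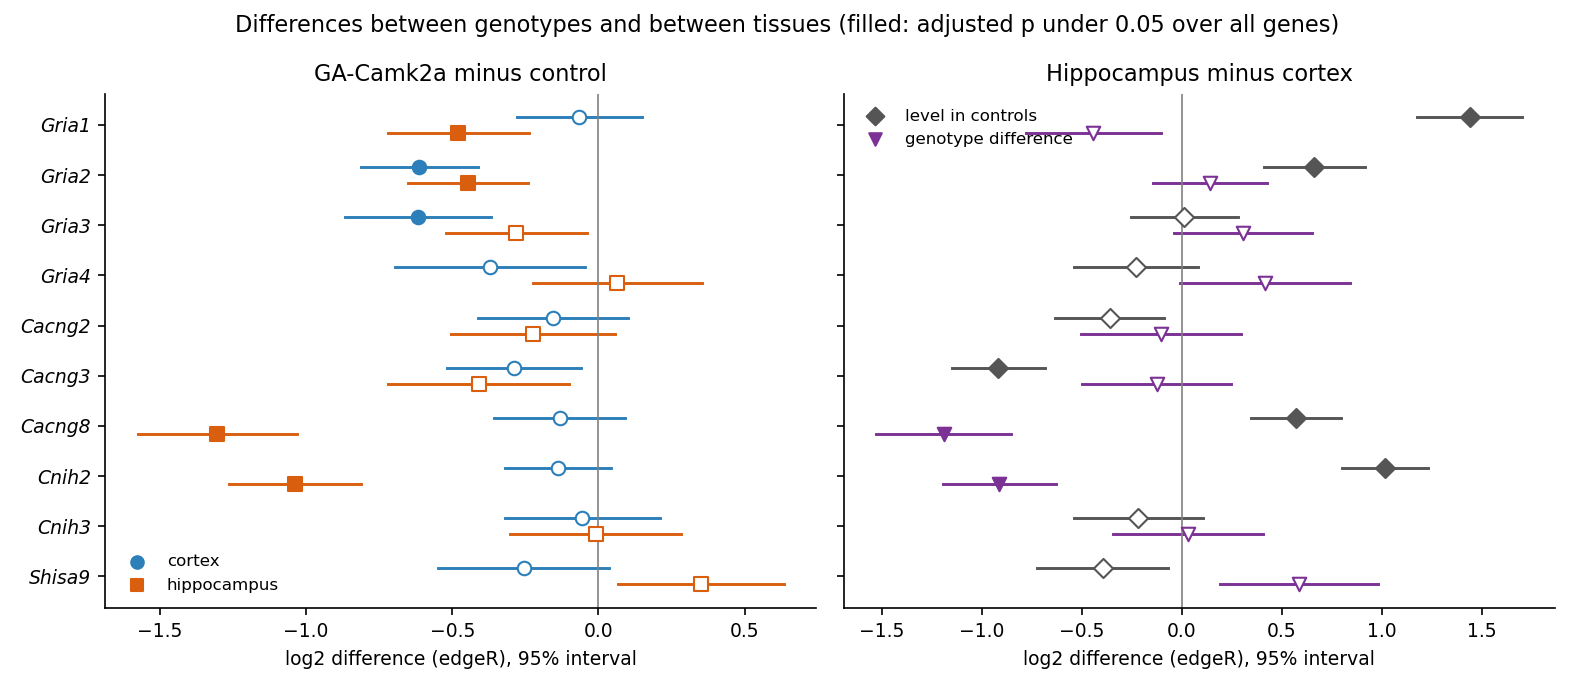
Log2 differences with 95% intervals (x axis) for the 10 genes (y axis). Left, GA-Camk2a minus control in cortex (circles) and hippocampus (squares). Right, control hippocampus minus control cortex (diamonds) and the genotype difference of hippocampus minus that of cortex (triangles). Filled symbols passed over all genes tested, and Cacng8 and Cnih2 are the filled triangles, at -1.19 and -0.91.

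Whether the genotype difference itself differed between the tissues was asked of all 21 libraries in a single fit. Of the 10 genes, Cacng8 and Cnih2 passed, beside 0.4% of the 14751 genes tested. Both passed with a negative value, as did 0.251% of the genes tested, and 0.149% passed with a positive one. The hippocampal minus the cortical log2 difference was -1.19 ± 0.16 for Cacng8 (edgeR adjusted p = 0.000798) and -0.91 ± 0.14 for Cnih2 (edgeR adjusted p = 0.00171). These rest on the same libraries with which the genes were named. In batch 1 and batch 2 alone the values were -1.13 and -1.20 for Cacng8 and -0.98 and -0.79 for Cnih2, none of which passed on the fewer libraries. With mouse as a block the same count of 2 passed.

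The pore subunits did not pass this test. For Gria1 the tissues differed by -0.44 ± 0.16 (95% interval -0.78 to -0.10, edgeR adjusted p = 0.318). For Gria2 the value was 0.14 ± 0.14 (-0.14 to 0.43) and for Gria3 0.31 ± 0.17 (-0.04 to 0.65). So the passing of Gria3 in cortex alone and of Gria1 in hippocampus alone is not shown to be a difference between the tissues. Shisa9 had the widest positive value, 0.59 ± 0.19 (edgeR adjusted p = 0.227). The cortex and hippocampus samples came from the same mice apart from 1 control.

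Within a library the 4 pore subunits can be set against each other without the other genes. Their summed counts ran from 477 to 5980 per library, and since reads at the 3′ end depend on the transcript, a share is compared between groups and not between subunits. Gria1 made up 23.9 ± 1.55% of the counts in control cortex and 31.5 ± 1.86% in GA-Camk2a cortex. The highest control was at 25.1% and the lowest GA-Camk2a library at 28.5%. Gria2 made up 57.3 ± 2.68% and 51.4 ± 2.11%, and these overlapped because 1 control stood at 52.6%. The log2 ratio of Gria1 to Gria2 counts was -1.26 ± 0.14 in control cortex and -0.71 ± 0.14 in GA-Camk2a cortex, with ranges of -1.45 to -1.07 and -0.93 to -0.52 that did not meet.

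In hippocampus the shares of Gria1 and Gria2 overlapped between the genotypes. Gria1 made up 37.3 ± 2.05% in controls and 36.0 ± 1.78% in GA-Camk2a mice, and Gria2 made up 52.4 ± 1.54% and 51.9 ± 1.67%. The log2 ratio of the pair was -0.49 ± 0.12 and -0.53 ± 0.12. Gria4 made up 2.43 ± 0.25% in controls and 3.45 ± 0.39% in GA-Camk2a mice. Its lowest GA-Camk2a library (2.77%, mouse 34 with 55 Gria4 counts) was just above the highest control (2.74%). A share also depends on the counts of the other subunits, and the log2 difference of Gria4 itself was 0.06 ± 0.14. These shares are descriptions, with no test.

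**Figure D3:**
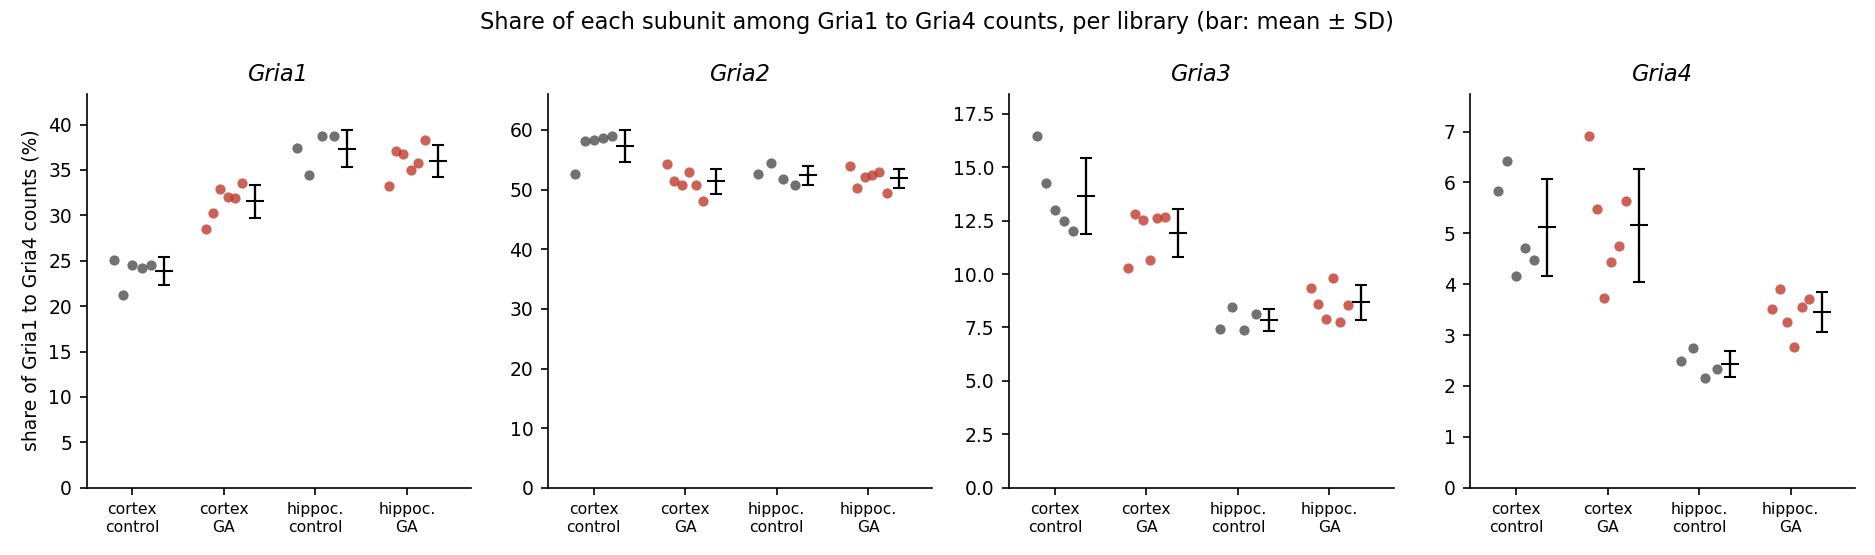
Share of each pore subunit in the summed Gria1 to Gria4 counts of a library (y axis, percent) by group (x axis), with the mean ± SD beside the libraries. The Gria1 share in cortex is 21.2% to 25.1% in controls and 28.5% to 33.6% in GA-Camk2a mice, and the Gria1 shares of the hippocampus groups overlap.

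Genes that belong to other parts of the AMPA receptor system were read from lists written alongside the 10. Earlier results of these libraries were known then too. The counts and adjusted p values of these lists, and of the marker lists below, are therefore a description. Their counts stand beside the shares of all genes tested, 6.17% lower and 6.35% higher in cortex and 5.97% lower and 4.97% higher in hippocampus. In cortex 1 of 9 other auxiliary subunit genes tested was lower and 0 were higher, which is near the share over all genes. In hippocampus 4 of the 9 were lower and 0 were higher. Syndig1, a membrane protein of excitatory synapses that binds AMPA receptors, passed in both (-0.44, edgeR adjusted p = 0.0202 in cortex, and -0.57, edgeR adjusted p = 0.0100 in hippocampus). Its relative Prrt1 was lower in hippocampus, at 67.7 ± 11.99 CPM against 108 ± 11.3 CPM (-0.71, edgeR adjusted p = 0.00039). Shisa6 and Shisa7, relatives of Shisa9 in the same complexes, had hippocampal differences of -0.52 each (edgeR adjusted p = 0.0225 and 0.0303). The median over this list was -0.23 in cortex and -0.52 in hippocampus.

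Receptor assembly was represented by 6 genes. Frrs1l, which takes part in putting receptors together in the endoplasmic reticulum, was lower in both tissues (-0.46, edgeR adjusted p = 0.0137 in cortex, and -0.50, edgeR adjusted p = 0.00817 in hippocampus). Porcn, an acyltransferase found in AMPA receptor complexes, was lower in hippocampus (-0.44, edgeR adjusted p = 0.0332). The other 4 genes passed in neither tissue.

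The list for trafficking, anchoring and clustering held 18 genes. In cortex 7 passed as lower and 0 as higher (median -0.28), and in hippocampus 7 as lower and 1 as higher (median -0.26). Over all genes tested, 6.17% and 5.97% were lower in cortex and hippocampus, and 4.97% were higher in hippocampus. The higher gene was Olfm2, a secreted relative of Olfm1, named here after its values were seen. It was 34.4 ± 4.30 CPM in control and 49.6 ± 5.28 CPM in GA-Camk2a hippocampus, with all 6 GA-Camk2a libraries above all controls (0.47, edgeR adjusted p = 0.00973). In cortex its difference was -0.29 (edgeR adjusted p = 0.0580), and it was the only gene of this list to pass the test of the difference between tissues (0.73, edgeR adjusted p = 0.0114). Olfm1, a secreted protein found in native AMPA receptor complexes, had the smallest adjusted p of the list. It was 761 ± 66.7 CPM in control and 554 ± 47.9 CPM in GA-Camk2a cortex (-0.45, edgeR adjusted p = 0.00119), and 922 ± 69.1 against 513 ± 40.2 CPM in hippocampus (-0.89, edgeR adjusted p = 9.35e-06). Nptx1 and Nptxr, a neuronal pentraxin and its receptor that gather AMPA receptors from outside the cell, differed by -0.68 and -0.69 in hippocampus (edgeR adjusted p = 0.000127 and 0.000176), and Nptxr by -0.52 in cortex (edgeR adjusted p = 0.00387). Dlg4, which encodes the scaffold PSD-95 that TARPs bind, differed by -0.47 in cortex (edgeR adjusted p = 0.0295) and -0.54 in hippocampus (edgeR adjusted p = 0.000934). Lrrtm1, a synaptic adhesion protein, and Nsf, an ATPase that binds Gria2, were lower in hippocampus by -0.51 and -0.39 (edgeR adjusted p = 0.00332 and 0.00378).

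The editing enzyme of the Gria2 codon shown above is Adarb1. It was 48.6 ± 9.78 CPM in control and 38.04 ± 4.49 CPM in GA-Camk2a cortex (-0.37, edgeR adjusted p = 0.0373), and 53.6 ± 6.96 against 37.8 ± 6.20 CPM in hippocampus (-0.55, edgeR adjusted p = 0.0101). The editing level itself was not measured. Of 7 kainate and delta receptor genes, the relatives of AMPA receptors, Grik5 was lower in cortex (-0.47, edgeR adjusted p = 0.0407) and Grid1 in hippocampus (-0.45, edgeR adjusted p = 0.0230). The other 5 passed in neither, and the list's median was -0.22 in cortex and 0.14 in hippocampus.

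Excitatory neurons, the cells that make most AMPA receptors and in which the transgene is switched on, had lower markers in both tissues. In cortex 5 of 8 excitatory markers were lower, with a list median of -0.63, and in hippocampus 5 of 8, with a median of -0.79. The shares of all genes tested, for these lists and those that follow, were 6.17% lower and 6.35% higher in cortex and 5.97% lower and 4.97% higher in hippocampus. Their summed level was 1916 to 2416 CPM in control and 1234 to 1684 CPM in GA-Camk2a cortex, and 2075 to 2624 CPM in control and 1104 to 1500 CPM in GA-Camk2a hippocampus. None of the 8 was at 0 throughout a group. Camk2a itself, the gene whose promoter drives the Cre, differed by -0.74 in cortex and -1.15 in hippocampus (edgeR adjusted p = 0.000102 and 5.02e-06). Of 9 pan-neuronal markers, 4 were lower in cortex and 7 in hippocampus. Inhibitory neuron markers had 0 of 7 lower in either tissue, with 1 higher in cortex, near the share over all genes, and 2 higher in hippocampus, while 5 and 6 of 8 astrocyte markers and 6 of 8 microglial markers in each tissue were higher. Striatal markers fell in cortex (8 of 8 tested, median -1.61), where their sum was 429 to 628 CPM in controls and 137 to 237 CPM in GA-Camk2a mice. The part of any of these lists in the differences of the 10 genes was not tested.

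The hippocampus list holds markers of its fields. Spink8, Fibcd1 and Wfs1, markers of CA1 pyramidal cells, were lower in GA-Camk2a hippocampus (-1.57, -1.05 and -0.83, edgeR adjusted p = 6.69e-06, 0.007 and 0.00086). The dentate gyrus markers Prox1 and C1ql2 had differences of 0.21 and -0.22 that did not pass. Zbtb20, a transcription factor and the most abundant gene of the list in hippocampus, was 473 ± 46.2 CPM in controls and 501 ± 71.9 CPM in GA-Camk2a mice (0.04 ± 0.09) and did not pass either. Like Cacng8 and Cnih2, Spink8 and Wfs1 passed the test of the difference between tissues (-1.83 and -0.96, edgeR adjusted p = 0.000798 and 0.0273), as did the excitatory neuron markers Neurod6 and Slc17a7 (-1.23 and -0.60, edgeR adjusted p = 0.0271 and 0.0389). How far Cacng8 and Cnih2 move with these fields was not tested.

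**Figure D4:**
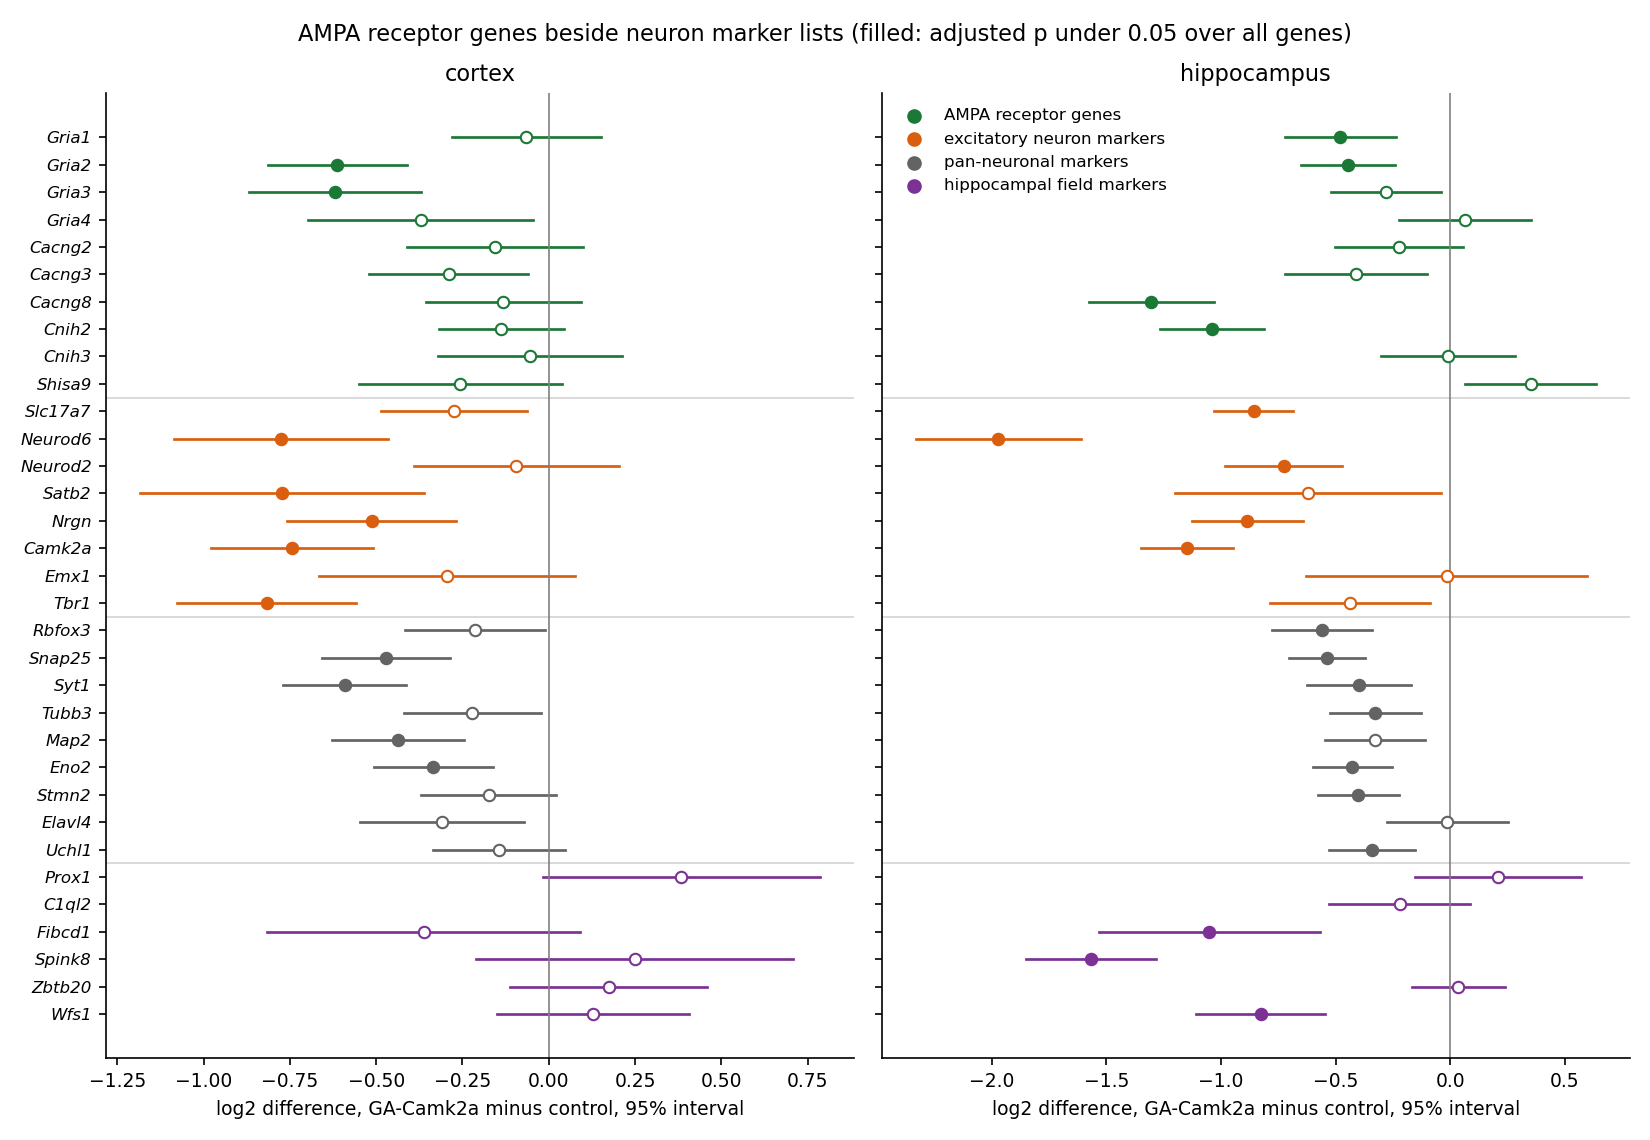
Log2 difference of GA-Camk2a minus control with 95% interval (x axis) for the 10 AMPA receptor genes and the markers of excitatory neurons, of all neurons and of hippocampal fields (y axis), in cortex and hippocampus. Filled points passed over all genes tested, and C1ql2 was not tested in cortex. In hippocampus Cacng8 (-1.30) and Cnih2 (-1.04) lie among Neurod6 (-1.97), Spink8 (-1.57), Camk2a (-1.15) and Fibcd1 (-1.05).

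Each gene was also set against the mean log2 level of the 8 excitatory markers in the same library. That mean was 6.64 ± 0.19 in control and 6.13 ± 0.12 in GA-Camk2a cortex, and 6.61 ± 0.19 in control and 5.84 ± 0.20 in GA-Camk2a hippocampus. Subtracting it moves all 10 genes of a library by the same amount, so the relative scale keeps the order of their differences and shows only where each lies beside the change of the list mean. Gria2 (-0.08) and Gria3 (-0.10) were below 0 in cortex, and the median of the 10 was 0.30. Cacng8 (-0.49) and Cnih2 (-0.23) were below 0 in hippocampus, and the median was 0.46. All 6 GA-Camk2a hippocampi were below all controls for Cacng8, and 4 of 6 for Cnih2.

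On the same scale, the hippocampal difference was 1.16 for Shisa9, 0.89 for Gria4 and 0.58 for Cacng2, with all 6 GA-Camk2a libraries above all controls, and 0.87 for Cnih3 with 5 of 6. In cortex Gria1 had the widest, 0.48, with 5 of 6 above all controls. With pan-neuronal markers as the reference instead, the medians were 0.10 in cortex and 0.02 in hippocampus, so how many genes lie above 0 reflects the reference list. These relative levels carry no test.

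**Figure D5:**
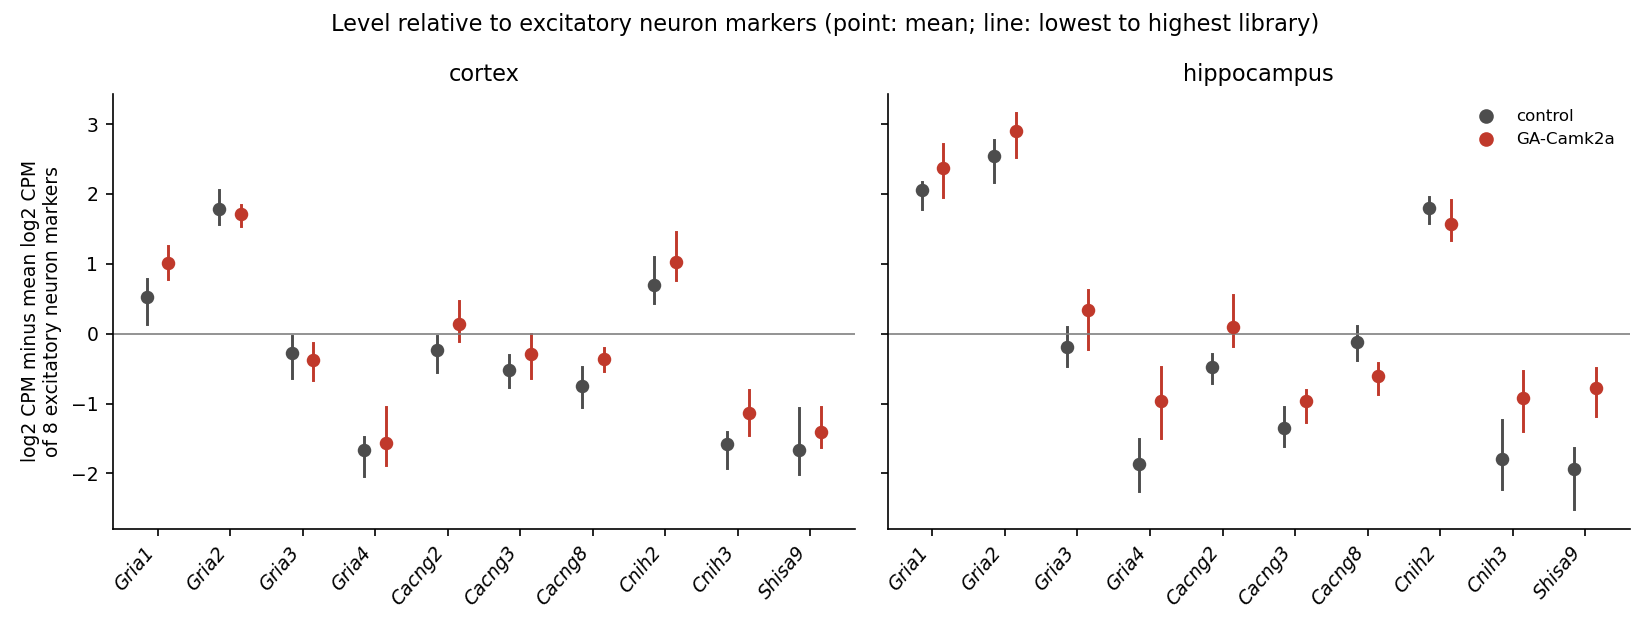
Log2 CPM of each gene minus the mean log2 CPM of 8 excitatory neuron markers in the same library (y axis) for the 10 genes (x axis). Points are group means and lines run from the lowest to the highest library, grey for controls and red for GA-Camk2a mice. Cacng8 in hippocampus lies lower in GA-Camk2a mice by 0.49, and Shisa9 higher by 1.16.

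Across the 4 group means of log2 CPM, each centred on its own average, the genes nearest to each pore subunit were sought among 5178 genes, or 5179 for Gria4, with an average log2 CPM of at least 5. Likeness was the root mean square distance over the 4 groups. Nearest to Gria1 were Kctd4, Dock9 and Zeb2, at distances of 0.0759, 0.108 and 0.11. Nearest to Gria2 were Neto1, Lmo7 and Slc8a1, at 0.0237, 0.0348 and 0.0377, and nearest to Gria3 were Lrrn3, D430041D05Rik and R3hdm1, at 0.0205, 0.0214 and 0.0333. Nearest to Gria4 were Scn1a, Rragd and Osbpl8, at 0.0169, 0.0220 and 0.0271. With 4 points such nearness is a description only.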

How the data were processed

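Bulk RNA of 21 libraries was sequenced by prime-seq, a 3′-end method that barcodes each sample during reverse transcription. The authors deposited a table of raw counts per gene, not normalized, of which 43308 of 64361 gene rows carry a symbol (96.1% of counts). The submitters' processing notes name FastQC 0.11.8, cutadapt 1.12, STAR, DESeq2 1.44 and the mm39 build. The study also names zUMIs, a pipeline for barcoded reads with molecular identifiers, for these libraries. Whether the table holds counts of identifiers or of reads, the gene annotation and the strand setting are not given in the sources used here.

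Groups and batches came from the labels. Counts were fitted with edgeR 4.0.16 in R 4.3.3 (quasi-likelihood, TMM, filterByExpr with a minimum count of 10, batch as a term) on the 11 cortex libraries, the 10 hippocampus libraries, the 9 control libraries (tissue) and all 21 (difference of the genotype differences). Benjamini-Hochberg adjustment ran over all genes tested. Relative levels used log2 CPM with a prior count of 2. DESeq2 1.42.0, limma 3.58.1 (voom with quality weights for the libraries), other size factors, no filter, no batch term, thinned counts, single batches, left-out libraries and a mouse block were tried. The scripts were tested on simulated data.

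The 10 genes and all lists were chosen with earlier results of these data known. The genes named from the receptor lists are those past the threshold in a genotype comparison or in the difference between tissues, at most 6 a list by adjusted p, with Adarb1 and the excitatory markers. Olfm2 and the hippocampal field markers were named outside this rule, after their values were seen.

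Tissues of the same mouse were paired by the mouse number in the labels. Over 10 pairs and 11196 genes, the correlation of their deviations from the group means was -0.26 to 0.36 (median 0.03), above 0.1 in 5. Replicates of 46 same-group pairs differed by more than counting noise (chi-square per degree of freedom 2.10 to 15.1). Intervals cover the spread between these libraries.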

Additional observations from a re-analysis of the deposited data

Results flagged for a closer look

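The genotype difference of Cacng8 and Cnih2 was itself different between hippocampus and cortex, by -1.19 and -0.91 on the log2 scale (test of the difference in edgeR's fit over 21 libraries, adjusted p = 0.000798 and 0.00171). These genes were named with results of the same libraries in view, so the values are a description. Neither passed in batch 1 alone (adjusted p = 0.325 and 0.139) or in batch 2 alone (adjusted p = 0.123 and 0.626). All 6 GA-Camk2a hippocampi were below all controls for both genes.

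In 3 of 40 checks of a gene in a group, a library stood apart from the rest of its group (Dixon's test). Chance gives this in 5% of such checks. Gria2 was 477 CPM in cortex of control mouse 31, where the other 4 controls were at 296 to 340 CPM. Cacng2 was 104 CPM in cortex of GA-Camk2a mouse 34, where the other 5 were at 66.5 to 77.0 CPM. Cnih3 was 38.5 CPM in cortex of GA-Camk2a mouse 30, where the other 5 were at 27.9 to 31.5 CPM. Without cortex of control mouse 31, the cortical difference of Gria1 changed from -0.06 to 0.04, and neither value passed.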

How the results depend on the processing

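The number of the 10 genes that passed in cortex was 2 in the settings tried, apart from batch 2 alone, where it was 0 (2 were at an unadjusted p under 0.05 in edgeR). In hippocampus it was 4, with 2 in batch 1 alone and 3 in batch 2 alone. It was 5 without the filter and by limma-voom with quality weights, where Cacng3 was added. Between control tissues it was 5, and 3 in batch 1 alone. It was 6 by limma-voom with quality weights and under the mouse block (the pairing by replicate), where Cacng2 was added. For the difference between tissues it was 2, and 0 in batch 1 alone and 0 in batch 2 alone, fits added after seeing the data (3 and 2 genes at an unadjusted p under 0.05). The mouse block left it at 2. Leaving out each library in turn gave 2 to 2, 3 to 5, 5 to 6 and 2 to 2 genes. The causes were not tested, though a single batch holds fewer samples.

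Against pan-neuronal markers the median relative level in hippocampus moved from 0.46 to 0.0236.

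Estimates near 0 changed sign, none of which passed. In cortex, Cnih3 was 0.0577 on thinned counts. In hippocampus, Cnih3 was 0.00654 with upper quartile factors, 0.16 on thinned counts and 0.0286 in batch 1 alone, and Gria4 was -0.0139 without a filter and -0.0276 in batch 1 alone. Between control tissues Gria3 was -0.0024 without the batch term, -0.12 in batch 1 alone and -0.0688 with the mouse block. For the difference between tissues, Cacng3 was 0.0216 in batch 1 alone, and Cacng2 was 0.20 and Cnih3 -0.0408 in batch 2 alone. With a library left out, the ranges were -0.12 to 0.0379 for Gria1 and -0.12 to 0.0410 for Cnih3 in cortex, -0.0172 to 0.16 for Gria4 and -0.12 to 0.15 for Cnih3 in hippocampus, -0.0750 to 0.0992 for Gria3 between tissues in controls, and -0.19 to 0.0152 for Cacng2 and -0.0364 to 0.19 for Cnih3 for the difference between tissues.

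Counts were down to 22 in a library for Shisa9, 30 for Gria4 and Cacng3, and 32 for Cnih3.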
